A study of Mus musculus with 9 samples.

Results

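The miR-378 family was followed in the tibialis anterior (TA) muscle of cachectic and control mice. Its members were taken by name from the count tables: mmu-miR-378a-3p, mmu-miR-378a-5p, mmu-miR-378b, mmu-miR-378c and mmu-miR-378d, which are 5 of the 1915 mature miRNAs listed. Small RNA libraries came from 4 control mice, injected with PBS in both flanks, and from 5 LLC mice, injected with 750000 Lewis Lung Carcinoma cells in each flank. Lewis Lung Carcinoma is a mouse lung tumor line, and these mice are a model of cancer cachexia, the loss of muscle and fat that accompanies a tumor. TA is a mostly fast, glycolytic muscle of the lower leg, and in LLC mice it was collected 22 days after the injection. The labels of the control mice give 0 days, whereas the methods of the study state that both groups were examined at 22 days. The labels name no engineered allele. The strain is C57BL/6J and the age 10 weeks in the sample labels, whereas the design text of the series gives C57BL/10 males of 8 weeks. Each library is labelled as a separate sample.

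As background, miR-378a lies within Ppargc1b, the gene of the coactivator PGC-1β, which raises oxidative metabolism, and the miRNA is processed from an intron of its transcript. Both arms of its hairpin are known as regulators of mitochondrial and fat metabolism, miR-378a-3p through the enzyme Crat and miR-378a-5p through the mediator subunit Med13. In skeletal muscle, miR-378 has been linked to fiber mass, insulin signaling and autophagy. A miRNA recognises its targets mainly through the seed, bases 2 to 8 from its 5′ end, so members with the same seed are read as 1 family even when they come from different hairpins. Mature miRNAs that are alike over most of their length can also share sequencing reads.

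The mature sequences of miR-378b, miR-378c and miR-378d show which of these 3 members can share targets and reads. They were copied from RefSeq (GRCm38.p6), whose table held 3 of the 5 members, and are printed 5′ to 3′ with the seed in capitals:

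miR-378b: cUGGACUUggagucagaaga

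miR-378c: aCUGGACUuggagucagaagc

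miR-378d: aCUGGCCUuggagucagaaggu

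The 3 sequences are 20, 21 and 22 bases long. With miR-378b set 1 base further along, it was identical to miR-378c in 19 of 20 bases, an unbroken run of 19, and the only substitution from miR-378b to miR-378c was A20C, counted from the 5′ end of miR-378b. The start of miR-378b is thus shifted by 1 base, and its seed is UGGACUU, against CUGGACU in miR-378c. From miR-378c to miR-378d there were 2 substitutions, A6C and C21G, counted from the 5′ end of miR-378c. The first of them lies in the seed, which is CUGGCCU in miR-378d. Among the 1679 mature mouse miRNAs of that table, 0 others had any of these 3 seeds. That table lacked both arms of miR-378a, so whether either arm shares a seed with these 3 was not tested.

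The 3 hairpins do not all carry the mature miRNA on the same arm, and their likeness outside it was not tested. They are printed in full, with the mature miRNA in capitals, to show where it sits:

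Mir378b: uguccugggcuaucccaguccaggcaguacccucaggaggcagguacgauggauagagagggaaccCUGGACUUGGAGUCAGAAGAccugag

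Mir378c: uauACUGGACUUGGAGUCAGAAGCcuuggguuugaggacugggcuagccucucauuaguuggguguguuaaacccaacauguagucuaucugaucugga

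Mir378d: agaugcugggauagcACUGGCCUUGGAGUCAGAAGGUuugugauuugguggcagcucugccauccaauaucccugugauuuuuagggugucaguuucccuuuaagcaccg

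In Mir378b the mature miRNA takes bases 67 to 86 of 92 and lies on the 3′ side. In Mir378c it takes bases 4 to 24 of 99, and in Mir378d bases 16 to 37 of 110, both on the 5′ side. Mir378b lies on chromosome 11 of GRCm38 from 88352773 to 88352864 on the plus strand, inside an intron of Msi2 but on the strand opposite to that gene. Mir378c lies on chromosome 14 from 46954830 to 46954928 on the minus strand, inside an intron of Samd4 and again opposite to it. Mir378d lies on chromosome 10 from 126710282 to 126710391 on the minus strand, where GENCODE lists no other gene.

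The authors mapped each read to the mature sequences of miRBase with no mismatch allowed in its first 8 bases, and kept every best alignment. A read that matches more than 1 member can therefore be counted at each. Reads inside the 19 bases common to miR-378b and miR-378c can match both. The A6C substitution falls within the 8 bases that had to match, so a read of miR-378c that starts at its first base cannot be counted at miR-378d. Through the 19 common bases, the counts of miR-378b and miR-378c may hold the same reads. Counts of miR-378b were 0.492 to 0.650% of those of miR-378c, so shared reads can be no larger a part of miR-378c. The sequence of miR-378a-3p was not at hand, so its overlap with either of them was not compared. How many reads miR-378b and miR-378c share, with each other or with miR-378a-3p, was not tested.

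The libraries held 4992339 to 7833161 counts. TMM normalization factors, which correct for a few miRNAs taking a large part of a library, were 0.953 to 1.15 for control libraries and 0.762 (LLC 5) to 1.11 for LLC libraries. Of 6 listed muscle markers, 5 passed the filter on low counts, at unequal levels. By mean CPM, the count scaled to a common library size, miR-133a-3p was 14th of all miRNAs and miR-133b-3p 19th, while miR-1a-3p was 190th at 18.96 CPM, miR-499-5p 279th and miR-208b-3p 284th. miR-206-3p had 0 to 3 counts in a library. The 5 tested markers all had a negative log2-fold change, LLC against control, with a median of -0.26, beside -0.023 for all tested miRNAs. At an unadjusted p of at most 0.05 (edgeR), 0 of the 5 passed, against 16.4% of all tested miRNAs. In bulk muscle, fewer cells of a type and less RNA per cell cannot be told apart. Complete-linkage clustering of Z-scores over the 304 tested miRNAs, cut into 2 clusters, set LLC 1 and LLC 5 apart from the other 7 libraries, so the log2-fold changes, the ratios between members and the spread between mice are also given without them.

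The family members differed widely in abundance. By mean CPM after TMM normalization over the 9 mice, miR-378a-3p was the 12th and miR-378c the 18th most abundant of all miRNAs, miR-378a-5p the 62nd, miR-378b the 166th and miR-378d the 387th. These are ranks of counts, and a read kept at more than 1 near-identical miRNA enters the count of each. The order was the same in each of the 9 libraries. Counts of miR-378a-3p were 4.81 to 5.72 times those of miR-378c, and those of miR-378c 6.73 to 11.3 times those of miR-378a-5p. Counts of miR-378a-5p were 16.1 to 22.8 times those of miR-378b, which in turn were 14.1 to 118 times those of miR-378d. No pair of neighbors in this order overlapped between mice. Of the 5 members, 4 passed the filter of more than 32 counts in at least 1 library, as did 304 of all miRNAs, and miR-378d, with 1 to 9 counts per library, did not.

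**Figure D1:**
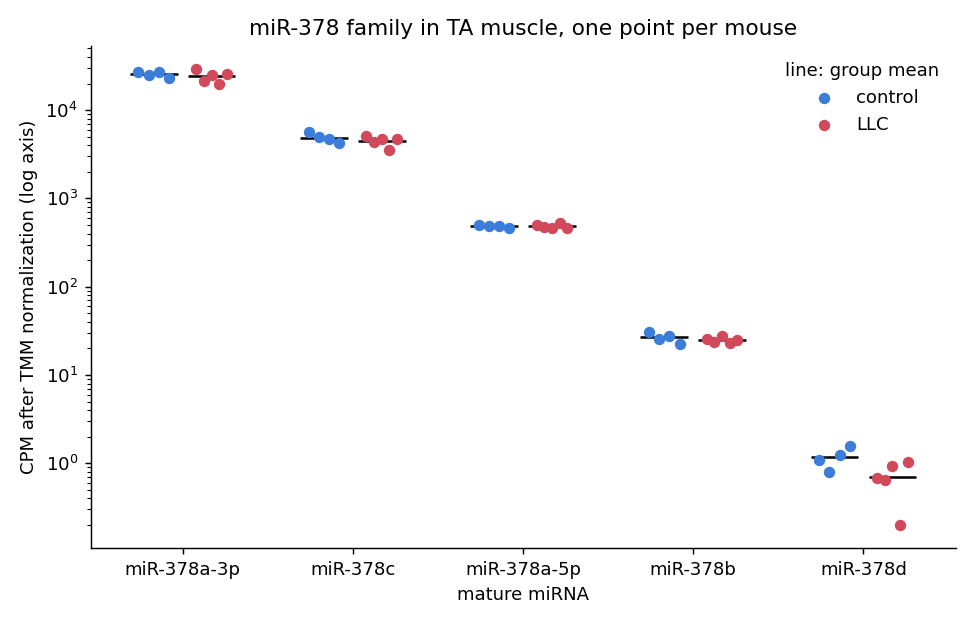
CPM after TMM normalization (log axis) of the 5 members, 1 point per mouse, 4 control mice and 5 LLC mice, with the group mean as a line. The members lie on separate levels from 0.197 CPM (miR-378d in LLC 5) to 29440 CPM (miR-378a-3p in LLC 1), and the groups overlap for each.

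No member of the family was called different between the LLC and the control group. In the quasi-likelihood test of edgeR over the 304 miRNAs, 0 of the 4 members tested passed an adjusted p of at most 0.05 with a fold change of at least 1.5, where 0% of all tested miRNAs passed. At an unadjusted p of at most 0.05, 0 of the 4 members passed, against 16.4% of all tested miRNAs, and DESeq2 and limma with voom also found 0 of 4 at either threshold. Of the 304 miRNAs, DESeq2 called 7 and limma with voom 0, and 54 and 46 passed the unadjusted threshold. The groups overlapped in CPM for each of the 4 members, while they did not overlap for 5.92% of all tested miRNAs. The estimates were small and close to the median log2-fold change of all tested miRNAs, which was -0.023. With LLC 1 and LLC 5 both left out, a choice made after seeing the data, 0 of 4 were called, and the log2-fold changes were -0.050 (miR-378a-3p), -0.033 (miR-378a-5p), -0.033 (miR-378b) and -0.059 (miR-378c), beside -0.33 for miR-378d.

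The most abundant member, miR-378a-3p, had 27089, 25014, 26716 and 22886 CPM in control 1 to 4. In the LLC mice it had 29440 (LLC 1), 21235 (LLC 2), 24807 (LLC 3), 19993 (LLC 5) and 25934 CPM (LLC 6). In these CPM, LLC 2 and LLC 5 lay below all control mice and LLC 1 above all of them. As a share of the library total, LLC 2 (2.10%) and LLC 5 (1.52%) again lay below the control range of 2.32 to 3.09%. LLC 1 (2.58%) lay within that range, and no LLC mouse lay above it. The means were 25426 ± 1919 CPM (SD, n = 4) and 24282 ± 3785 CPM (SD, n = 5). It had a log2-fold change of -0.066 (standard error 0.142, 95% interval -0.37 to 0.24, Benjamini-Hochberg adjusted p = 0.789, edgeR). In fold terms the interval ran from 0.774 to 1.18, which leaves out the 1.5-fold threshold in both directions. The difference in log2 CPM was -0.077, with p = 0.548 by a two-sided exact permutation test. With 4 against 5 mice such a permutation test cannot go below 0.00794. Without LLC 5 the log2-fold change was -0.0037, and without LLC 1 it was -0.14.

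The second member by level, miR-378c, varied between mice much as miR-378a-3p did. CPM in control 1 to 4 were 5631, 4902, 4718 and 4247. The LLC mice had 5144 (LLC 1), 4306 (LLC 2), 4661 (LLC 3), 3583 (LLC 5) and 4742 CPM (LLC 6), and LLC 5 alone lay outside the control range. As a share of the library total, both LLC 2 (0.4253%) and LLC 5 (0.2728%) lay below the lowest control mouse (0.4306%). The means were 4875 ± 575 CPM (SD, n = 4) and 4487 ± 587 CPM (SD, n = 5). The log2-fold change was -0.12 (standard error 0.129, 95% interval -0.39 to 0.15, adjusted p = 0.619, edgeR), and the exact permutation test gave p = 0.405. Without LLC 5 it was -0.048, and without LLC 1 -0.17.

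The 5′ arm of the miR-378a hairpin, miR-378a-5p, had the smallest spread of the members. It had 498, 484, 483 and 467 CPM in control 1 to 4, and 497 (LLC 1), 469 (LLC 2), 458 (LLC 3), 532 (LLC 5) and 457 CPM (LLC 6) in the LLC mice. After TMM scaling LLC 5, which was lowest for miR-378a-3p and miR-378c, was highest here. By share of the library total LLC 5 was instead the lowest of all mice, at 0.0405% (control mice 0.0460 to 0.0568%). Both group means were 483 CPM, with an SD of 12.6 in the 4 control mice and 31.99 in the 5 LLC mice. The log2-fold change was -0.0017 (standard error 0.0985, 95% interval -0.21 to 0.21, adjusted p = 0.998, edgeR), and its sign changed with the scaling, to 0.043 with RLE factors. The exact permutation test gave p = 0.976. The interval in fold terms, 0.864 to 1.16, was the narrowest of the 4 members tested.

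The hairpin of both arms, Mir378a, lies on chromosome 18 of GRCm38 from 61397835 to 61397900 on the minus strand. It sits in an intron of Ppargc1b, on the same strand, and GENCODE lists a second miRNA gene, Gm25301, on the other strand at this place.

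For miR-378b, 113 to 228 counts per library were found. CPM were 30.9, 25.4, 27.98 and 22.3 in control 1 to 4 and 25.3, 23.6, 27.9, 23.3 and 25.0 in LLC 1, 2, 3, 5 and 6. In these CPM the 5 LLC mice all lay within the control range. With library totals alone, LLC 1 (0.00222% of the total) and LLC 5 (0.00177%) lay below the lowest control mouse (0.00226%). The means were 26.7 ± 3.64 CPM (SD, n = 4) and 25.0 ± 1.82 CPM (SD, n = 5), and edgeR's log2 estimate was -0.092 (standard error 0.142, 95% interval -0.39 to 0.21, adjusted p = 0.721). The exact permutation test gave p = 0.452.

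The rarest member, miR-378d, differs from miR-378c in a seed base. It had 8, 6, 7 and 8 counts in control 1 to 4 and 4, 4, 7, 1 and 9 counts in LLC 1, 2, 3, 5 and 6. In CPM these were 1.08, 0.795, 1.24 and 1.58 in the control mice and 0.675, 0.652, 0.930, 0.197 and 1.03 in the LLC mice. LLC 1, LLC 2 and LLC 5 lay below all control mice, while LLC 3 and LLC 6 lay within their range. A floor of 3 counts corresponds to 0.344 to 0.593 CPM, and LLC 5 was below it. Over the group, 29 counts in the control libraries and 25 in the LLC libraries gave a ratio of 0.662, with an exact 95% interval of 0.372 to 1.17 for counting error only. The libraries carried no molecular identifiers, so copies of 1 molecule can be counted more than once. In edgeR's fit over all 932 miRNAs with a count, the log2-fold change was -0.58 (standard error 0.488, 95% interval -1.54 to 0.38, adjusted p = 0.630). The difference in log2 CPM was -0.61 (two-sided exact permutation test, p = 0.0794), and without control 2 it was -0.74 (exact permutation test, p = 0.0357, not adjusted, 1 of 9 such omissions). The difference over all 9 mice varied with the prior count, from -0.80 with 0.5 to -0.42 with 5 added counts, each with an exact permutation p = 0.0794. The counting interval of the pooled ratio includes equal levels.

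**Figure D2:**
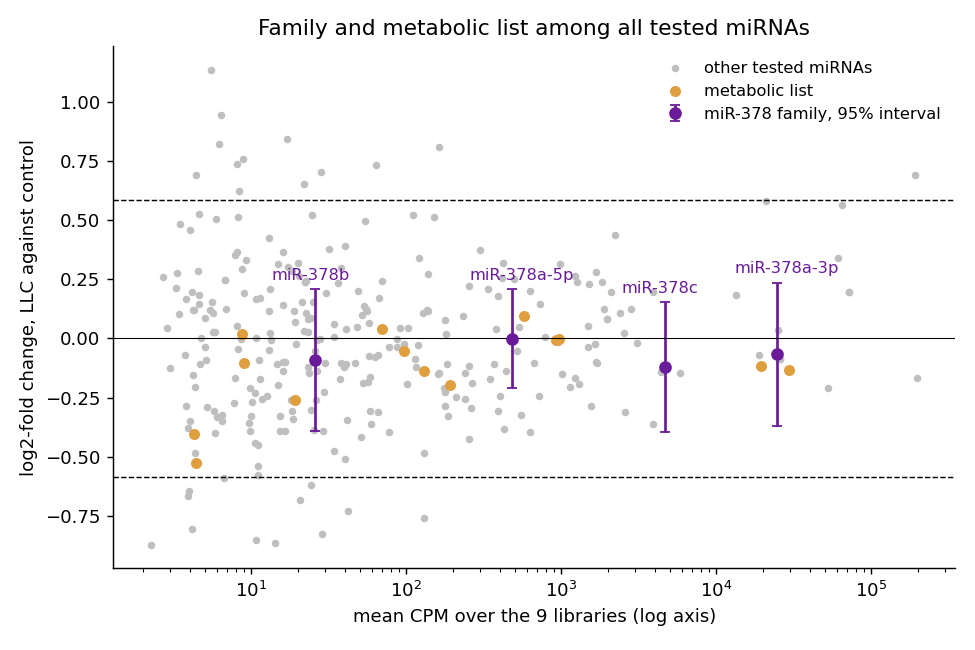
Log2-fold change, LLC against control, over mean CPM (log axis) for the 304 tested miRNAs. Purple points with 95% intervals are the 4 family members past the filter, orange points the 14 tested miRNAs of the metabolic list, and dashed lines mark a 1.5-fold change. The 4 members lie between -0.12 and 0, and each interval stays inside the dashed lines.

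Ratios between members within a library do not depend on library size or normalization, and they were compared in the same mice. Counts of miR-378c were 20.8, 19.6, 17.7 and 18.6% of those of miR-378a-3p in control 1 to 4, a mean of 19.2 ± 1.35% (SD, n = 4). In the LLC mice they were 17.5 to 20.3%, a mean of 18.5 ± 1.08% (SD, n = 5). The difference in log2 ratio was -0.045 (two-sided exact permutation test, p = 0.468). Over the 9 libraries the SD of this log2 ratio was 0.0885, against a median of 0.329 for the other tested miRNAs set against miR-378a-3p in the same way. Only 2 of the 300 miRNAs outside the family had a smaller SD. Reads counted at both miR-378a-3p and miR-378c would enter both sides of this ratio, and how many there are was not tested.

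The 2 arms of miR-378a had a ratio that spread more widely in the LLC than in the control mice. Counts of miR-378a-5p were 1.84, 1.94, 1.81 and 2.04% of those of miR-378a-3p in control 1 to 4, and 1.69, 2.21, 1.85, 2.66 and 1.76% in LLC 1, 2, 3, 5 and 6. LLC 2 and LLC 5 lay above the control range and LLC 1 and LLC 6 below it. The means were 1.91 ± 0.106% (SD, n = 4) and 2.03 ± 0.404% (SD, n = 5), a difference in log2 ratio of 0.074 (two-sided exact permutation test, p = 0.659). Without LLC 5 the difference was -0.029. The difference in spread between the groups was not tested. Of the 74 hairpins with both arms past the filter, the SD of the log2 ratio of arms over the 9 libraries ranged from 0.127 to 0.991 with a median of 0.370, and miR-378a, at 0.202, had the 9th smallest.

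Counts of miR-378b were 0.104 ± 0.00698% of those of miR-378a-3p for control mice (SD, n = 4) and 0.105 ± 0.0128% for LLC mice (SD, n = 5, difference in log2 ratio -0.0062, exact permutation test, p = 0.952). Set against miR-378c, they were 0.519 to 0.593% in the control mice and 0.492 to 0.650% in the LLC mice. The proportion of miR-378d averaged 0.00468 ± 0.00160% for control mice and 0.00282 ± 0.00121% for LLC mice (difference in log2 ratio -0.71, exact permutation test, p = 0.0952). That difference was -0.83 with no prior count, -0.50 with a prior count of 2, and -0.34 as the mean of the 3 same-numbered differences of the replicate block. These 4 ratios were the only ones tested, and 0 had a p of at most 0.05. Without LLC 1 and LLC 5, the differences in log2 ratio were 0.020 (miR-378a-5p), 0.028 (miR-378b), -0.0012 (miR-378c) and -0.31 (miR-378d), and the smallest exact permutation p of the 4 was 0.371.

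**Figure D3:**
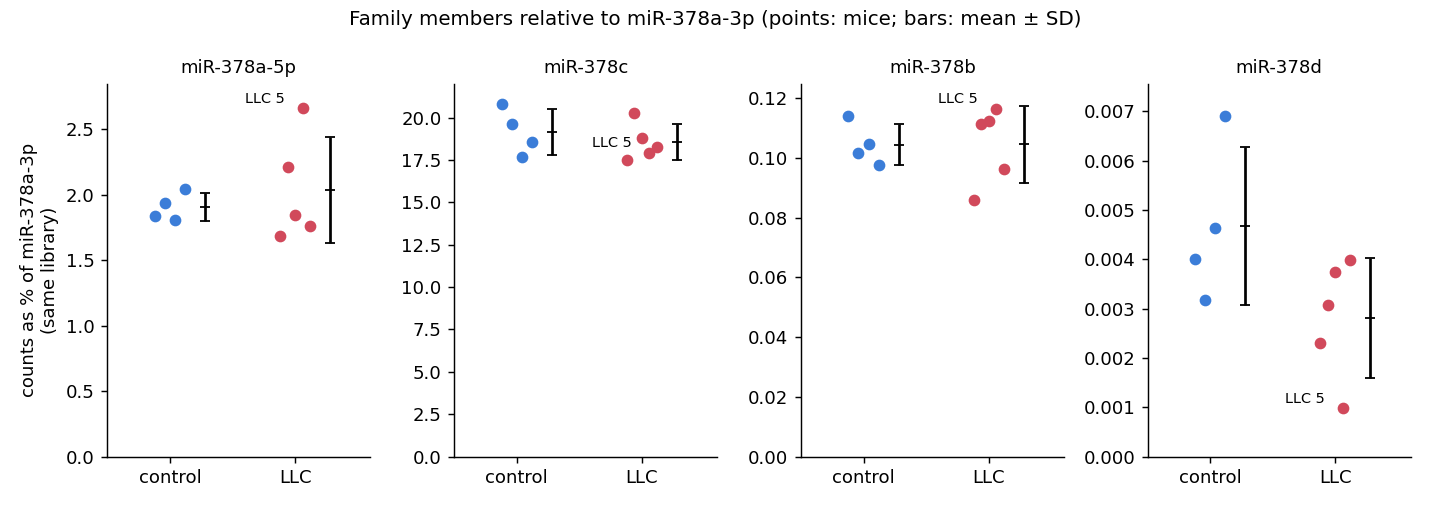
Counts of each other member as a percentage of the counts of miR-378a-3p in the same library, with 1 point per mouse and the mean ± SD of each group as a bar. The panel of miR-378a-5p shows the wider LLC group, from 1.69% to 2.66% in LLC 5, against 1.81 to 2.04% in the control mice, and miR-378c stays between 17.5 and 20.8%.

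Spread between mice of the same group differed among the members. For miR-378a-5p the pooled SD of log2 CPM within groups was 0.0750, the 2nd smallest of the 304 tested miRNAs after miR-497a-5p (0.0713), where the median was 0.256. With library totals in place of TMM factors it was 0.144, the 8th smallest, where the median was 0.320. Among the 30 tested miRNAs within 2-fold of its abundance, 1 had a smaller SD with TMM and 2 with library totals. The SD of miR-378a-3p was 0.185, that of miR-378c 0.186 and that of miR-378b 0.1503, at ranks 77, 78 and 43. Without LLC 1 and LLC 5 the SDs were 0.0320 for miR-378a-5p, the smallest of the 304, 0.129 for miR-378a-3p, 0.138 for miR-378c and 0.171 for miR-378b, where the median was 0.213. With all 9 mice, 6 of the 8 miRNAs within 2-fold of the abundance of miR-378a-3p had a smaller SD than it did.

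How far the spread between mice exceeded counting error differed among the members. The coefficient of variation (CV) of miR-378a-3p between mice was 7.55% among control and 15.6% among LLC mice, where the counts alone would give 0.247% in each. For miR-378a-5p it was 2.61% among control and 6.63% among LLC mice, beside 1.79% and 1.77% from counting. For miR-378b the CV was 13.7% and 7.29%, beside 7.61% and 7.71% from counting. The CV of miR-378d was 27.9% in the control mice and 46.4% in the LLC mice, where counting alone gives 37.1% and 44.7%.

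**Figure D4:**
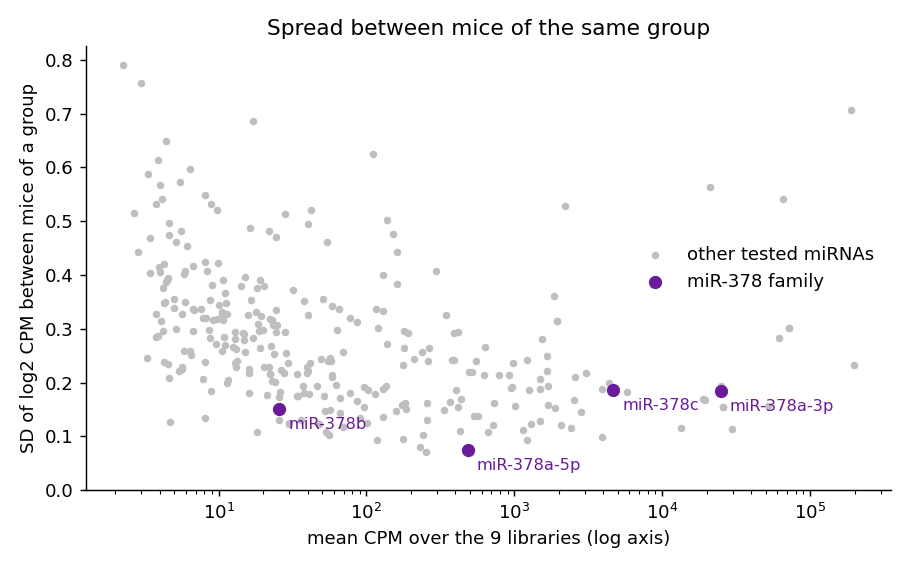
Pooled SD of log2 CPM between mice of the same group over mean CPM (log axis) for the 304 tested miRNAs, with the 4 family members past the filter in purple. The point of miR-378a-5p lies near the lower edge at 0.0750, and miR-378a-3p and miR-378c lie at 0.185 and 0.186.

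Outside the family, the miRNAs most like miR-378a-3p were those with the smallest SD of the log2 ratio to it over the 9 libraries, given as a description. They were miR-30e-3p (SD 0.0699, 947 CPM), miR-1843b-5p (0.0860, 38.0 CPM), miR-130a-3p (0.0915, 160 CPM), miR-30f (0.104, 39.6 CPM) and miR-340-5p (0.107, 369 CPM). Their log2-fold changes lay between -0.15 and -0.015 and none had an adjusted p under 0.489 (edgeR). For miR-378d the closest were miR-431-5p (SD 0.336), miR-1933-3p (0.382) and miR-369-5p (0.416), where the median was 0.735 and the counts of miR-378d limit any likeness.

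Other miRNAs tied to muscle metabolism were taken from a list of 18. Of these, 14 passed the filter, 11 with a negative and 3 with a positive log2-fold change, and edgeR called 0, where 0% of all tested miRNAs were called. At an unadjusted p of at most 0.05 it found 0 of the 14, against 16.4% of all tested miRNAs. Their median log2-fold change was -0.11, beside -0.023 for all tested miRNAs. The largest estimates were those of miR-499-5p, which sits in a slow myosin gene and goes with oxidative fibers, at -0.53 (standard error 0.268), and of miR-208b-3p, from an intron of the slow myosin gene Myh7, at -0.40 (standard error 0.286). Both had 15 to 49 counts per library, and their adjusted p were 0.296 and 0.433 (edgeR). For miR-1a-3p, a miRNA of striated muscle, it was -0.26 (standard error 0.223). miR-499-5p, miR-208b-3p, miR-1a-3p and miR-133a-3p are also among the listed muscle markers.

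The 3 most abundant members of the list had small estimates. For miR-27b-3p, a regulator of fat cell formation, CPM were 30935 ± 1209 (SD, n = 4) and 28191 ± 2723 (SD, n = 5), and edgeR estimated -0.13 on the log2 scale (standard error 0.127). For miR-133a-3p they were 20321 ± 3384 and 18718 ± 1381, with an estimate of -0.12 (standard error 0.137). For miR-149-5p they were 968 ± 125 and 965 ± 134, with an estimate of -0.0039 (standard error 0.127). The adjusted p of these 3 were 0.565, 0.641 and 0.996 (edgeR). Of the remaining list, miR-696 and miR-761, both linked to the PGC-1α gene Ppargc1a, had 0 counts in each library. A count of 0 allows up to 3 counts in a library, or 0.344 to 0.593 CPM. miR-494-3p had 1 to 6 counts per library and miR-33-5p 7 to 31.

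Markers of other cells in the muscle were read beside the family. The 3 erythroid miRNAs (miR-144-3p, miR-144-5p and miR-451a) summed to 215 to 325 CPM in the control mice and 92.4 to 220 CPM in the LLC mice, and 3 of 3 had an unadjusted p of at most 0.05 in edgeR's test, all lower, where 16.4% of all tested miRNAs passed that threshold in either direction. The 5 leukocyte miRNAs summed to 691 to 800 CPM and 583 to 742 CPM, with miR-223-3p higher and miR-150-5p lower at that threshold. The largest part of that sum was miR-150-5p (means 492 and 377 CPM), while 4 of the 5 had a positive log2-fold change. The 2 endothelial miRNAs summed to 26211 to 33929 CPM in the control mice and 24162 to 29972 CPM in the LLC mice, and the 3 fibroblast miRNAs to 1939 to 2371 CPM and 1759 to 3300 CPM. Their largest parts were miR-126a-5p (means 26718 and 25146 CPM) and miR-199a-3p (1894 and 2005 CPM). Both endothelial miRNAs and 2 of the 3 fibroblast miRNAs had a negative log2-fold change. In each of these lists 1 member, miR-126a-3p and miR-199a-5p, was lower at the unadjusted threshold. By adjusted p, 0 of these 13 were called. The part of these cells in the levels of the miR-378 family was not tested.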

How the data were processed

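RNA from the TA muscle of 4 control and 5 LLC mice was extracted with TRIZOL, and small RNA libraries (TruSeq Small RNA) were read as 50 bp single ends. The authors mapped the reads with Bowtie to miRBase 21 and deposited raw counts per mature miRNA, 1 table per library, with no normalization or filter. Because all best alignments were kept, a read can be counted at more than 1 near-identical miRNA. Of 1915 miRNAs, 932 had a count. The filter of the study (a count over 32 in 1 library or more) left 304, which were tested.

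Counts were fitted in R 4.3.3 using TMM factors and the quasi-likelihood F test of edgeR 4.0.16, with no block and Benjamini-Hochberg adjustment over all miRNAs tested. miR-378d, under the filter, was read from the fit over 932. CPM were computed after TMM normalization, with a prior count of 2 for log2 CPM. Single values and within-library ratios (0.5 added to each count) were compared by two-sided exact permutation tests (scipy 1.17.1) of the absolute difference of means, on 5 members and 4 ratios. Their p are not adjusted. Figures were drawn with matplotlib 3.10.9.

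The members and lists were chosen with earlier results of these data known. Named miRNAs are the 5 members, in the metabolic list the 3 with the largest log2-fold change and the 3 most abundant, and the 5 and 3 most like miR-378a-3p and miR-378d by the SD of the log2 ratio. miR-497a-5p, and the list members under the filter, were named after their values were seen.

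The edgeR test and the permutation test were run on simulated data as a check of the code. The simulated counts had a common dispersion for all miRNAs, and the permutation check used normally distributed values. They do not show how the tests perform at the spreads and low counts seen here. No library was a copy of another: the lowest ratio of chi-square to degrees of freedom within a group was 124. Alternatives were RLE factors, library totals, totals less the 5 miRNAs of highest level, DESeq2 1.42.0, limma 3.58.1 with voom, other filters, a replicate block, pooled members, other prior counts and leaving out each mouse. Leaving out LLC 1 and LLC 5 together (log2-fold changes, ratios and spread) was added after seeing the data. An LLC library removed by the authors was not analysed here.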

Additional observations from a re-analysis of the deposited data

How the results depend on the processing

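Across 19 alternatives (21 for miR-378a-3p), the log2-fold change stayed negative for miR-378a-3p (-0.21 to -0.0037), miR-378b (-0.23 to -0.011) and miR-378c (-0.26 to -0.042), and for miR-378d in 16 (-0.78 to -0.33). The number of members called was 0 in each setting, also at an unadjusted p of at most 0.05, and the smallest adjusted p of a member was 0.487 (edgeR, library totals). For miR-378a-5p, whose estimate is next to 0, the sign turned positive with RLE factors (0.043), DESeq2 (0.043), no filter (0.039), filterByExpr (0.057) and a minimum of 10 counts in every library (0.016). Library totals alone moved the median of all tested miRNAs to -0.17. Relative to it, the 4 members past the filter lay at -0.038 (miR-378a-3p), 0.0071 (miR-378a-5p), -0.067 (miR-378b) and -0.094 (miR-378c). Pooling miR-378a-3p, miR-378b, miR-378c and miR-378d into 1 row gave -0.072, and dropping miR-378b and miR-378c gave -0.064. Calls over all tested miRNAs were 0 in the reported fit, 7 with DESeq2, 22 with no filter (932 tested), 1 without LLC 1, 8 without LLC 3 and 1 without both LLC 1 and LLC 5. At an unadjusted p of at most 0.05 they were 50 in the reported fit of edgeR, 91 with no filter, 30 without control 2, 30 without LLC 1 and 22 without both LLC 1 and LLC 5.

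When single mice were left out, log2-fold changes ran from -0.14 to -0.0037 for miR-378a-3p, -0.039 to 0.040 for miR-378a-5p, -0.15 to -0.011 for miR-378b, -0.17 to -0.042 for miR-378c and -0.78 to -0.41 for miR-378d. The differences in log2 CPM ran from -0.039 to 0.015 for miR-378a-5p and from -0.74 to -0.38 for miR-378d, whose exact permutation p lay between 0.0357 (without control 2) and 0.214. The log2 ratios to miR-378a-3p ran from -0.029 to 0.14 for miR-378a-5p, -0.048 to 0.062 for miR-378b, -0.083 to -0.0050 for miR-378c and -0.87 to -0.46 for miR-378d. Without both LLC 1 and LLC 5 the miR-378b ratio was 0.028. The sign changes of miR-378a-5p and of the miR-378b ratio lie within these ranges, and the cause was not tested.

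Control 1 to 3 and LLC 1 to 3 share only numbers, being different mice, and their deviations from the group means correlated at -0.23, -0.090 and -0.25 over the tested miRNAs. With the replicate block, the log2-fold changes were -0.074 (miR-378a-3p), -0.042 (miR-378a-5p), -0.13 (miR-378b), -0.11 (miR-378c) and -0.42 (miR-378d), 0 members were called, and 15 of all tested miRNAs had an unadjusted p of at most 0.05 in edgeR. Depth limits miR-378d, with 1 to 9 counts per library. How many reads miR-378b and miR-378c share, with each other or with the more abundant miR-378a-3p, was not tested.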
